A study of Oryza sativa Japonica Group with 6 samples.

Results

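The change from meiosis to the single microspore was followed in anthers of Taichung65-4x, an autotetraploid rice, by setting the small RNA library of the single microspore stage (SCP-4x) against that of meiosis (MA-4x). All 441 miRNAs listed for Taichung65-4x were taken, of 486 listed in the series for both ploidies. Taichung65-4x had been made from the diploid Taichung65-2x by colchicine doubling and was then selfed for many generations, so it is 1 line with the same genetic background as its diploid counterpart. SCP-4x anthers of 1.50–2.05 mm came from florets of 6.50–7.00 mm, and MA-4x anthers of 1.45–1.95 mm came from florets of 4.80–5.30 mm. The other libraries drawn on were of pre-meiotic Taichung65-4x anthers (PMA-4x) and of Taichung65-2x anthers at meiosis (MA-2x) and at the single microspore (SCP-2x). Each group is 1 library with no replicate, so each difference here is between 2 libraries, counting intervals hold no biological variation, and no test between stages could be made. Whole anthers were sequenced, in which fewer cells of a type and less RNA per cell cannot be told apart.

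Plant miRNAs are cut from hairpin precursors by DICER-LIKE enzymes. One arm of the hairpin usually gives the mature miRNA that guides an ARGONAUTE protein to a matching mRNA, and the opposite arm, or star strand, is usually turned over. In rice, DICER-LIKE1 makes the common class of 21 nt, while DICER-LIKE3 makes long miRNAs of 24 nt, most of which begin with A and load into other ARGONAUTEs. Grass anthers are known for miR2118 and miR2275, which cut non-coding transcripts and so start the phased small RNAs (phasiRNAs) of the male germ line, miR2118 those of 21 nt and miR2275 those of 24 nt. As a check of the labelled tissue, both families were abundant in these libraries. The miR2118 members summed to 6425 in SCP-4x and 12118 in MA-4x, and miR2275 members to 10986 in SCP-4x and 12636 in MA-4x. The sums are over listed entries, some of which repeat a sequence, so reads can be counted more than once in them.

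Levels are the deposited normalized signal, in which 1 read is worth 0.797 in SCP-4x and 0.906 in MA-4x. A miRNA was compared where the larger of its 2 values exceeded 10, and it was called higher or lower, written as rose or fell, where the fold exceeded 2. Of the 441 miRNAs, 390 could be compared. The other 51 stayed at or under 10 in both libraries and had entered the list through PMA-4x.

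The sequences below are those on which the main results turn, as the deposited tables give them, written 5′ to 3′ with the seed, bases 2 to 8, in capitals. The first set holds mature miR2118 members that fell or stayed within 2-fold, and these share a pair of seeds.
osa-miR2118f: tTCCTGATgcctcccattccta
osa-miR2118o: cTCCTGATgcctcccaagccta
osa-miR2118h: tTCCTGATgcctctcattccta
osa-miR2118d: tTCCTGATgcctcccatgccta
osa-miR2118b: tTCCCGATgcctcccattccta
osa-miR2118c: tTCCCGATgcctcctattccta
osa-miR2118p: tTCCCGATgcctcccatgccta

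The second set holds arms of miR166 and miR171 hairpins in which the 5′ products shown had lower ratios than the abundant 3′ products shown.
osa-miR166a-5p: gGAATGTTgtctggttcaagg
osa-miR166b-5p: gGAATGTTgtctggctcgggg
osa-miR166l-5p: gGATTGTTgtctggttcaagg
osa-miR166a-3p: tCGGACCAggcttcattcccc
osa-miR166k-3p: tCGGACCAggcttcaatccct
osa-miR171i-5p: aGGTATTGgcgtgcctcaatc
osa-MIR171i-p3: tTGAGCCGcgtcaatatctct
osa-MIR171b-p5: gGATATTGgggcggttcaatc

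The third set holds conserved miRNAs and rice miRNAs that rose, with the relatives of miR164d and miR172a that did not pass 2-fold as deposited.
osa-miR164d: tGGAGAAGcagggcacgtgct
osa-miR164a: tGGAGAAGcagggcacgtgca
osa-miR164c: tGGAGAAGcagggtacgtgca
osa-miR172a: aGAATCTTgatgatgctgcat
osa-miR172b: gGAATCTTgatgatgctgcat
osa-MIR167j-p3: gATCGTGCtgcgcagtttcatc
osa-MIR169b-p3: gGCAAGTTgtccttggctacg
osa-miR6250_R+1: gGGGATAGatcgacgcgtcaaga

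The last set holds 24 nt miRNAs. The first is the most abundant of that length and did not pass 2-fold, and the others rose.
osa-miR5792_1ss22AC: gATGACAGcggtggttcggacctc
osa-miR1875: aCAATGGAgtgaagtgcaacagaa
osa-miR5148a_L+2R-2: aATGAGGGgtagaaatgtcatatc
PC-5p-122014_164: aCGAGACAtttcatataacaacga
PC-5p-269393_64: aACCAACCtaggagtagacgaggc
PC-5p-222023_90: tATAAAAAccggcacctatagaat

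More miRNAs fell than rose: 36 rose, which is 9.23% of the 390 compared, and 83 fell, which is 21.3%. The 36 rises were of scarce miRNAs, with a median SCP-4x level of 20.3 and only 5 over 50, while 53 of the 83 falls had more than 50 in MA-4x. The median log2 ratio of SCP-4x to MA-4x was −0.31 over the 390 miRNAs and −0.72 over the 164 with more than 50 in 1 library. This balance depends on how the libraries are scaled. Scaling to equal sums, to a median ratio of 1 or to clean reads adds 0.49, 0.31 or 0.60 to each log2 ratio and gives 81, 58 or 95 rises and 33, 45 or 29 falls. Since each of the 3 adds to the ratio, the 36 rises were called under all 4 scalings (9.23%), while 29 falls were (7.44%), and a median near 0 changes its sign. Families and length classes are therefore set against the median of all miRNAs, and the falls named below held under all 4 scalings unless another number of scalings is given. A miRNA written as not called was not called as deposited, and other scalings can make it a rise.

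**Figure D1:**
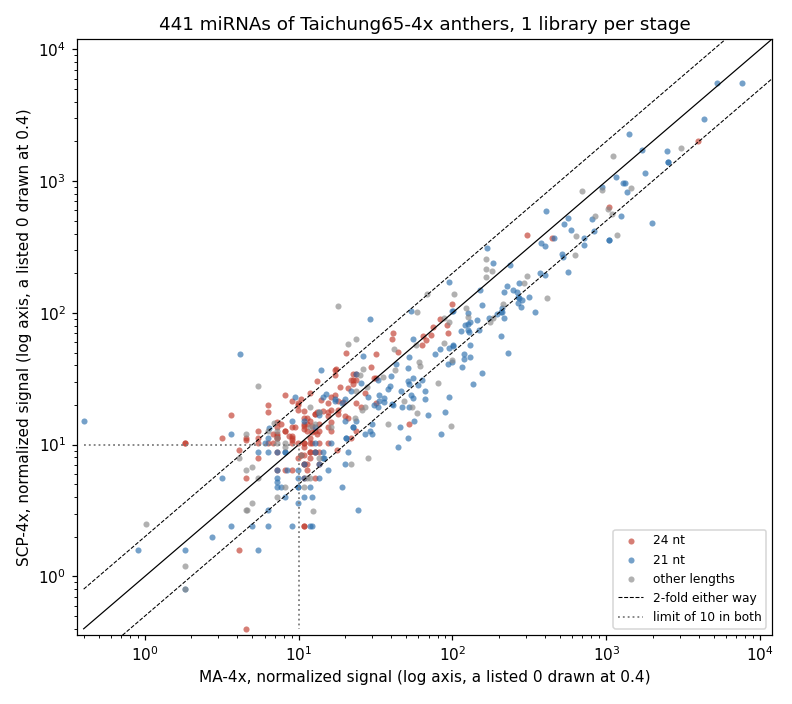
Levels of the 441 miRNAs in SCP-4x (vertical, normalized signal, log axis) and MA-4x (horizontal, same unit), 1 point per miRNA and 1 library per stage. The solid line marks equal levels and the broken lines a 2-fold difference. The 21 nt miRNAs lie mostly below the line of equal levels and the 24 nt miRNAs, which are scarcer, mostly around or above it.

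SCP-4x held 77399 listed reads and 343 miRNAs over 10, and MA-4x held 95913 listed reads and 338 miRNAs over 10, with reads recovered from the step between low values. Of the values, 76.2% in SCP-4x and 72.3% in MA-4x were whole reads, within 0.01 of a read. Where both values of a miRNA were whole, a 95% exact binomial interval for its fold is given. Of the 36 rises, 22 had such an interval, 15 of these lay wholly above 1 and 2 wholly above 2. Of the 83 falls, 56 had one, 49 lay wholly above 1 and 18 wholly above 2. The rises rest on fewer reads than the falls do.

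The change differed between lengths. Among 24 nt miRNAs 21 of 140 rose (15.0%) and 4 fell (2.86%), and 109 of the 140 had a ratio above the median of all miRNAs. Among 21 nt miRNAs 7 of 177 rose and 61 fell, 19 of them under all 4 scalings, and 49 of the 177 were above the median of all. Over all lengths 9.23% rose and 21.3% fell, 7.44% under all 4 scalings. The median log2 ratio was 0.25 for 24 nt and −0.77 for 21 nt as deposited, and the other scalings gave 0.56 to 0.85 for 24 nt and −0.45 to −0.17 for 21 nt. The 22 nt miRNAs, a length that often marks triggers of secondary small RNAs, lay with the 21 nt ones: 2 of 46 rose and 15 fell, with a median of −0.64.

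The lengths differ in level too, so the same counts were taken at like levels. Between 20 and 50, 9 of 35 miRNAs of 24 nt rose and 0 fell, against 3 rises and 10 falls among 42 of 21 nt, with medians of 0.48 and −0.63. Between 10 and 20 the medians were 0.19 for 88 miRNAs of 24 nt and −0.65 for 29 of 21 nt. Over 50, 17 miRNAs of 24 nt had 0 rises and 1 fall with a median of −0.08, which the other scalings would turn above 0, and 106 of 21 nt had 1 rise and 42 falls with a median of −0.85. A miRNA near the limit of 10 can pass only through the library where it is higher. Counting only miRNAs over 10 in both libraries left 291, of which 12 rose and 62 fell. There, 6 of 84 of 24 nt rose and 1 fell, and 2 of 150 of 21 nt rose and 49 fell.

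The summed level of a length told less than its members. All listed 24 nt miRNAs summed to 6368 in SCP-4x and 8354 in MA-4x, although their median ratio was above 1. One miRNA carried this difference: osa-miR5792_1ss22AC had 2002 in SCP-4x and 3959 in MA-4x (1.98-fold lower in SCP-4x, 95% counting interval 1.88–2.08), just short of a call. Without it, which was chosen after its values were seen, the 24 nt sums were 4366 in SCP-4x and 4395 in MA-4x. The opposite arm of its hairpin, osa-MIR5792-p3, also of 24 nt, had 638 in SCP-4x and 1047 in MA-4x. As shares of the listed signal, 24 nt miRNAs took 10.3% of SCP-4x and 9.61% of MA-4x, and 21 nt miRNAs took 69.8% of SCP-4x and 70.8% of MA-4x.

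**Figure D2:**
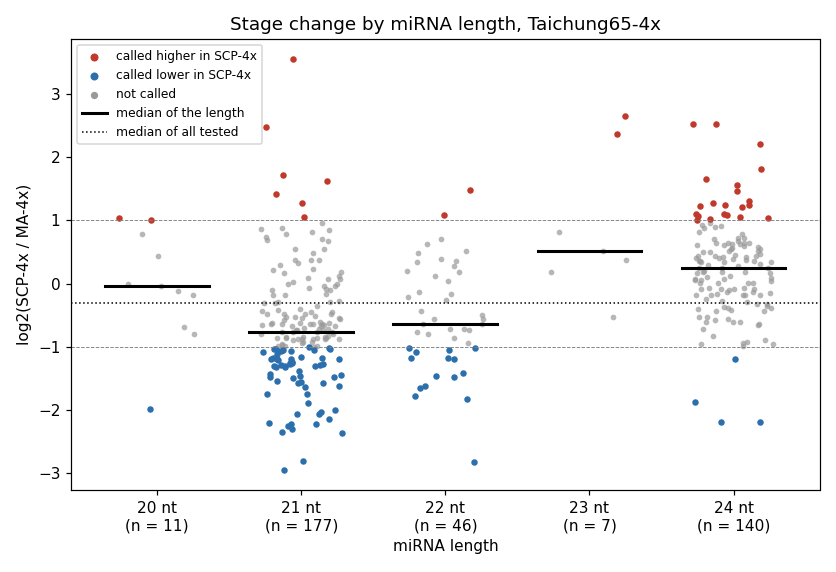
The log2 ratio of SCP-4x to MA-4x for each miRNA compared, by length, with horizontal jitter. Bars are medians per length, the dotted line is the median of all miRNAs compared (−0.31) and the broken lines mark 2-fold. The rise of osa-MIR169b-p3, listed at 0 in MA-4x, is drawn at its lower bound against 3 reads. The bar lies above the dotted line for 24 nt (0.25) and below it for 21 nt (−0.77).

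The 24 nt class is mostly of predicted hairpins, named PC, which were found by folding genome sequence around reads. Of 81 predicted 24 nt miRNAs 14 rose and 1 fell (median log2 ratio 0.34), while of 17 predicted 21 nt miRNAs 1 rose and 10 fell (median −1.25). Most of these 14 rises passed the limit of 10 through SCP-4x alone. Over 10 in both libraries, 2 of 43 predicted 24 nt miRNAs rose and 0 fell. Of 7 predicted 21 nt miRNAs there, 0 rose and 2 fell. Products of annotated rice hairpins were split the same way: 3 rises and 2 falls among 31 opposite arms of 24 nt, against 1 rise and 23 falls among 70 opposite arms of 21 nt. Over 10 in both libraries these were 1 rise and 1 fall among 19, against 0 rises and 21 falls among 61. Counts also differed by first base. Of 99 miRNAs of 24 nt with a 5′ A, the base that suits the ARGONAUTE4 group, 16 rose and 2 fell. Of 9 with a 5′ T 4 rose and 0 fell, of 10 with a 5′ C 1 rose and 1 fell, and of 22 with a 5′ G 0 rose and 1 fell, so the rises were not bound to a 5′ A. Over 10 in both libraries, rises were 4 of 59 with a 5′ A and 1 of 5 with a 5′ T. With a 5′ C they were 1 of 6 and with a 5′ G 0 of 14. Among 21 nt miRNAs, 18 of 32 with a 5′ C, 11 of 28 with a 5′ G, 8 of 24 with a 5′ A and 24 of 93 with a 5′ T, the base preferred by ARGONAUTE1, fell. Of all 21 nt miRNAs 34.5% fell. Under all 4 scalings the falls left were 6 with C, 5 with G, 3 with A and 5 with T. Of the 21 nt falls given above, 5 of the 10 predicted and 5 of the 23 opposite arms held under all 4.

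Examples of the 24 nt rises were low in both libraries. PC-5p-122014_164 had 49.4 in SCP-4x and 20.4 in MA-4x, a log2 ratio of 1.28. osa-miR5148a_L+2R-2 had 37.7 in SCP-4x and 17.5 in MA-4x, and osa-miR1875 36.7 in SCP-4x and 17.2 in MA-4x (2.13-fold, interval 1.22–3.85). PC-5p-269393_64 had 23.9 in SCP-4x and 8.15 in MA-4x (interval of the fold 1.36–7.03). At the scarce end, PC-5p-222023_90 had 16.7 in SCP-4x and 3.62 in MA-4x, and PC-3p-367244_47 and PC-5p-588719_30 had 10.4 in SCP-4x and 1.81 in MA-4x each, folds with intervals of 1.56–18.5 and 1.30–52.2. Intervals as wide as these fix the size of a change poorly. Among the 24 nt falls only osa-MIR2101-p3, the opposite arm of a rice hairpin, exceeded 50 in a library, with 14.4 in SCP-4x and 52.5 in MA-4x (3.66-fold lower, interval 2.13–6.60).

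No member of the phasiRNA trigger families miR2118 and miR2275 rose as deposited, and many miR2118 members fell. Both families are counted with both arms of their hairpins, and 17 of the miR2118 members compared are opposite arms. The counts and medians are therefore not of trigger strands alone. Of 29 miR2118 members compared, 15 fell (4 under all 4 scalings), against 21.3% of all miRNAs, and 2 of the 29 were above the median of all. Their median log2 ratio was −1.02 as deposited and −0.71 to −0.42 under the other scalings. Of 8 miR2275 members none was called, with a median of −0.30 as deposited and 0.01 to 0.30 otherwise, so its direction turns with the scaling. Members of miR2118 are near-identical and share reads, and some opposite arms are listed with identical sequences. Of the 29, 1 had whole reads in both libraries, so their counts are not independent of each other.

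Within miR2118, calls as deposited differed between the seeds shown above, in 3 of 4 members with TCCTGAT and 0 of 3 with TCCCGAT. Other mature members carry further seeds, and falls were not limited to TCCTGAT. osa-miR2118i, with the seed TCCTAGT, had 85.2 in SCP-4x and 176 in MA-4x and fell under the deposited scaling alone. osa-miR2118f had 387 in SCP-4x and 1182 in MA-4x, a log2 ratio of −1.61, and osa-miR2118o 130 in SCP-4x and 410 in MA-4x, a log2 ratio of −1.66. Both kept the call under all 4 scalings. osa-miR2118h, with the same TCCTGAT seed, had 277 in SCP-4x and 624 in MA-4x and fell under the deposited scaling alone, while the most abundant of the 4, osa-miR2118d, had 1767 in SCP-4x and 3078 in MA-4x, a log2 ratio of −0.80, which was not called. The members with a TCCCGAT seed had smaller differences, with log2 ratios of −0.74 to −0.64, close to that of osa-miR2118d. osa-miR2118b had 885 in SCP-4x and 1458 in MA-4x, osa-miR2118p 543 in SCP-4x and 848 in MA-4x, and osa-miR2118c 383 in SCP-4x and 639 in MA-4x. Across the family, 5 of 12 mature members and 10 of 17 opposite arms fell, and PMA-4x, at a summed 25343, was higher than either later library. osa-MIR2118p-p5, the opposite arm with the largest listed decrease among those over 50, had 17.3 in SCP-4x and 59.1 in MA-4x. The same sequence is also listed as osa-MIR2118d-p5, with 43.5 in SCP-4x and 99.9 in MA-4x, a log2 ratio of −1.20. The values of each entry therefore depend on how reads of 1 sequence were divided.

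In miR2275 no member passed 2-fold in either direction as deposited. osa-miR2275c_R-2, of 21 nt and the most abundant miRNA of SCP-4x, had 5553 there and 5280 in MA-4x. osa-miR2275d, of 22 nt, had 1546 in SCP-4x and 1106 in MA-4x, a log2 ratio of 0.48 (1.08 by clean reads, past 2-fold). A pair of entries named for maize, zma-miR2275c-5p_2ss14CA15TC and zma-miR2275b-5p_1ss12CG, had 1396 and 1395 in SCP-4x and 2502 and 2500 in MA-4x. These 21 nt entries are identical in sequence and nearly equal in value, so they were not read as independent. Both are nevertheless counted in the miR2275 sums, members and median given above.

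**Figure D3:**
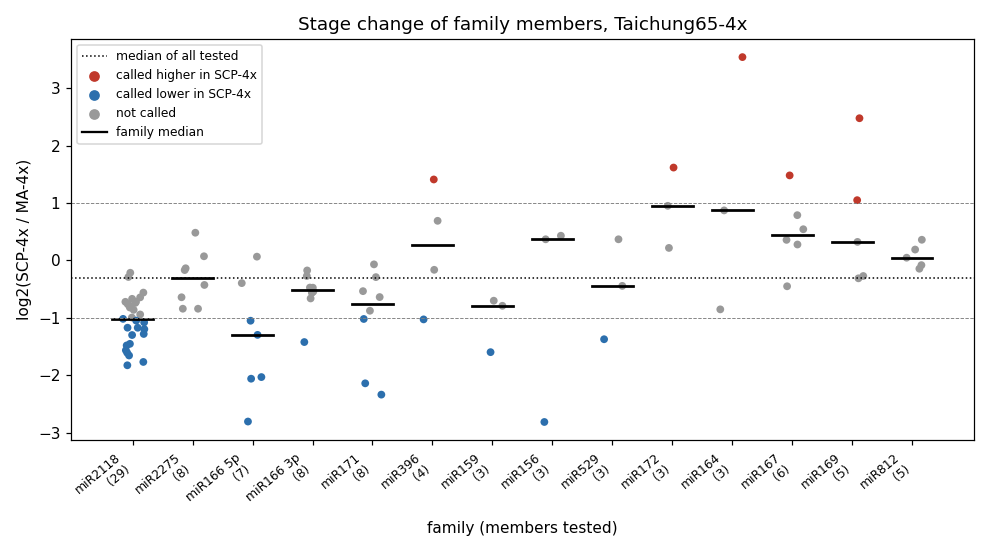
The log2 ratio of SCP-4x to MA-4x of each member compared in 14 family groups, with the number of members in parentheses. Bars are medians and the dotted line is the median of all miRNAs (−0.31). osa-MIR169b-p3 is drawn at its lower bound. As deposited, the 29 miR2118 members all lie below 0, and the 5p products of miR166 lie lower (median −1.30) than its 3p products (−0.51).

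The arms of miR166 parted. miR166 restricts the HD-ZIP III transcription factors that set the upper side of lateral organs and pattern vascular tissue, and its 3′ arm is the mature strand. Of 7 products of the 5′ arm 5 fell, 3 of them under all 4 scalings, against 21.3% of all miRNAs as deposited and 7.44% under all 4. Their median log2 ratio was −1.30 (−0.99 to −0.70 under the other scalings). Of 8 products of the 3′ arm 1 fell, with a median of −0.51 as deposited and −0.20, −0.01 and 0.09 by median ratio, equal sums and clean reads. The fall of 5′ products was largest in osa-miR166l-5p, with 11.96 in SCP-4x and 83.8 in MA-4x, and it was large also in the abundant osa-miR166b-5p, with 476 in SCP-4x and 1989 in MA-4x (4.17-fold lower). osa-miR166a-5p had 23.1 in SCP-4x and 94.7 in MA-4x, a log2 ratio of −2.03. The strand paired with it, osa-miR166a-3p, had 5521 in SCP-4x and 7673 in MA-4x, a log2 ratio of −0.48. The seed CGGACCA, which 6 of the 3′ products share, had no member called. The single 3′ fall was of osa-miR166i-3p_L+2R-2, at 44.5 in SCP-4x and 119 in MA-4x under 2 of the 4 scalings, whose 5′ end is shifted so that it carries another seed.

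In miR171, which targets GRAS-domain regulators of the HAIRY MERISTEM type, a pair of hairpins had a lower ratio on the 5′ arm, but the family as a whole did not part by arm. osa-miR171i-5p had 35.1 in SCP-4x and 155 in MA-4x (4.41-fold lower, interval 3.15–6.30). From the other arm, osa-MIR171i-p3 had 2957 in SCP-4x and 4286 in MA-4x (1.45-fold lower, interval 1.39–1.51). osa-MIR171b-p5 had 17.5 in SCP-4x and 88.8 in MA-4x (5.06-fold lower, interval 3.16–8.44), while mature osa-miR171b had 21.5 in SCP-4x and 33.4 in MA-4x, a log2 ratio of −0.64. Other 5′ products had the highest ratios of the family: osa-miR171c-5p had 31.1 in SCP-4x and 32.6 in MA-4x (log2 ratio −0.07), and osa-miR171e-5p had 10.4 in SCP-4x and 12.7 in MA-4x (−0.29). Of 3 products with the seed TGAGCCG of the 3′ arm 1 fell, under the deposited scaling alone, with a median log2 ratio of −0.88. Over the family 3 of 8 fell, 2 of them under all 4 scalings, against 21.3% of all miRNAs as deposited and 7.44% under all 4. Of the 8, 2 were above the median of all miRNAs.

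Across other hairpins too the arms, taken by their annotated names, had no common order. Of 76 hairpins with exactly 2 entries compared, 19 had entries whose log2 ratios differed by more than 1, and none had entries called in opposite directions. Some pairs are variants of 1 arm rather than opposite arms, such as those of MIR167d, MIR821a and MIR1436. Among the 19 are MIR1436 and MIR169b, the latter with a listed 0 read as 0.01. In 43 hairpins with an arm annotated as mature and an opposite arm, the annotated arm had the higher ratio in 23. The annotated arm is not always the more abundant one. In MIR529a, osa-miR529a_L+1 had 25.5 in SCP-4x against 974 for osa-MIR529a-p5, and MIR171i is alike. The count of 23 therefore does not compare abundant with scarce strands. In MIR5519 the mature osa-miR5519 had 149 in SCP-4x and 248 in MA-4x, and osa-MIR5519-p3 49.4 in SCP-4x and 229 in MA-4x. In MIR5486 it was the other way round, since the mature osa-miR5486 fell, with 11.2 in SCP-4x and 51.6 in MA-4x, and osa-MIR5486-p3 had 19.1 in SCP-4x and 27.2 in MA-4x. In MIR6250 the mature strand rose, as given below, while osa-MIR6250-p5 had 16.7 in SCP-4x and 13.6 in MA-4x. In MIR1871 the opposite arm osa-MIR1871-p5 rose, with 19.9 in SCP-4x and 6.34 in MA-4x, while osa-miR1871 had 78.2 in SCP-4x and 74.3 in MA-4x.

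Other falls were in the list of GAMYB and TCP regulators, known for anther development and organ growth. osa-miR319a-3p.2-3p_R+1, of the family that targets TCP factors, had 9.57 in SCP-4x and 44.4 in MA-4x (4.64-fold lower, interval 2.43–9.58). osa-miR159a.1, which targets the gibberellin-responsive GAMYB factors of the tapetum and aleurone, had 832 in SCP-4x and 1353 in MA-4x and was not called, and of its hairpin osa-MIR159a-p5 fell, with 7.18 in SCP-4x and 21.7 in MA-4x. The other abundant miR159 strand, osa-miR159f_R-1, had 169 in SCP-4x and 293 in MA-4x and was not called either. Over this list 2 of 4 fell, both under all 4 scalings, and 0 of 4 were above the median of all miRNAs. Among all miRNAs 21.3% fell, 7.44% under all 4 scalings. Of the 2 falls in the list, that of osa-MIR159a-p5 is of an opposite arm.

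The largest fall at a level of at least 50 was of osa-MIR156e-p3, from the opposite arm of an SPL-targeting miR156 hairpin, with 13.96 in SCP-4x and 98.3 in MA-4x (7.04-fold lower). Its level had been 31.3 in PMA-4x, so it peaked in MA-4x. The mature osa-miR156a had 139 in SCP-4x and 103 in MA-4x, a log2 ratio of 0.43 (1.03 by clean reads). Other falls followed a higher level in PMA-4x. osa-MIR5495-p3 had 235 in PMA-4x, 137 in MA-4x and 28.7 in SCP-4x. PC-5p-11519_1490 had 349 in PMA-4x, 69.8 in MA-4x and 16.7 in SCP-4x, and osa-miR5515 had 78.8 in PMA-4x, 56.2 in MA-4x and 15.2 in SCP-4x. osa-MIR5528-p5 (102 in SCP-4x and 342 in MA-4x) and osa-miR5496 (66.2 in SCP-4x and 206 in MA-4x) fell with counting intervals of the fold of 2.73–4.12 and 2.41–4.04.

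**Figure D4:**
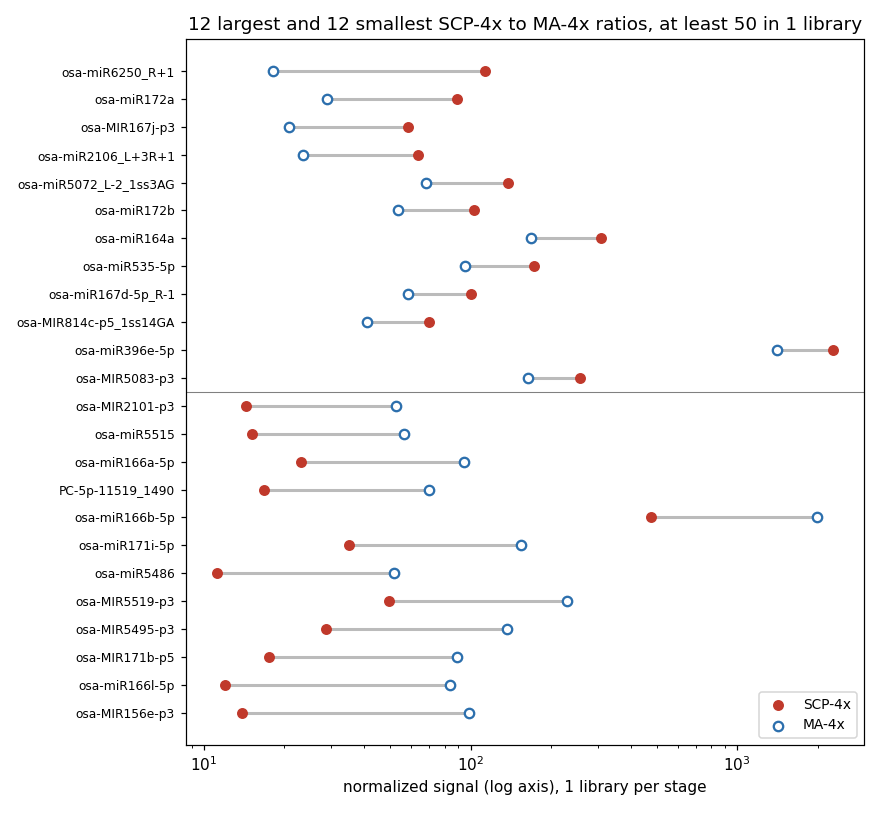
Levels in SCP-4x (filled) and MA-4x (open) of the 12 miRNAs with the largest and the 12 with the smallest ratio, among those with at least 50 in 1 library (normalized signal, log axis, 1 library per stage). The top 5 rose and the next 7 did not pass 2-fold as deposited, while all 12 in the lower part fell, the abundant osa-miR166b-5p to 476 in SCP-4x, against 1989 in MA-4x.

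Rises among conserved miRNAs included members of miR164, miR167, miR169, miR172, miR390 and miR396. Of 13 members of the auxin list (miR160, miR164, miR167, miR390 and miR393, the last with no entry listed) 3 rose, against 9.23% of all miRNAs, and 0 fell, and 11 were above the median of all miRNAs. Of these rises osa-miR164d and osa-miR390-3p passed the limit of 10 through SCP-4x alone. Over 10 in both libraries, 1 of 11 list members rose, against 12 of 291 miRNAs. The median log2 ratio of the 13 was 0.36 as deposited and 0.67 to 0.96 under the other scalings. osa-miR164d, of the family that targets NAC factors of organ boundaries, had 48.4 in SCP-4x and 4.15 in MA-4x, a log2 ratio of 3.54. Its relatives with the same seed, osa-miR164a (308 in SCP-4x and 168 in MA-4x) and osa-miR164c (56.1 in SCP-4x and 101 in MA-4x), were not called as deposited, although osa-miR164a passed 2-fold upward under the other 3 scalings (log2 ratio 1.18 to 1.47). None of the 3 had whole reads in both libraries, and they are so alike in sequence that reads can be split among them.

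miR167, which targets auxin response factors of anther and pollen development, had 1 rise among 6, against 9.23% of all miRNAs. osa-MIR167j-p3, the opposite arm of its hairpin, had 58.2 in SCP-4x and 20.8 in MA-4x (2.79-fold higher, interval 1.73–4.68). The mature strands were not called: osa-miR167d-5p_R+1 had 848 in SCP-4x and 699 in MA-4x, and osa-miR167a-5p 592 in SCP-4x and 406 in MA-4x, which passed 2-fold by equal sums and clean reads. osa-miR390-3p, the opposite strand of the miRNA that starts trans-acting small RNAs of the auxin pathway, rose, with 12.8 in SCP-4x and 6.34 in MA-4x (interval of the fold 0.78–5.78), while mature osa-miR390-5p had 231 in SCP-4x and 236 in MA-4x.

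All 3 miR172 members, which target AP2-like genes of flowering time and floret identity, were above the median of all miRNAs, and 1 rose. osa-miR172a had 89.1 in SCP-4x and 29.0 in MA-4x, a log2 ratio of 1.62. osa-miR172b had 103 in SCP-4x and 53.4 in MA-4x, just under 2-fold as deposited and over it under the other 3 scalings (log2 ratio 1.26 to 1.55), and osa-miR172d-5p_R+1 29.5 in SCP-4x and 25.4 in MA-4x. In the list of phase change and inflorescence that holds them (miR156, miR157, miR172, miR529 and miR535), 1 of 11 rose and 2 fell, so its share of rises was close to that of all miRNAs (9.23%). osa-miR535-5p had 172 in SCP-4x and 95.1 in MA-4x (1.81-fold, interval 1.43–2.31), which passed 2-fold under the other 3 scalings, and osa-MIR529a-p5 had 974 in SCP-4x and 1324 in MA-4x.

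miR169 targets the NF-YA subunit of nuclear factor Y. osa-MIR169b-p3 was listed at 0 in PMA-4x and MA-4x and had 15.2 in SCP-4x, or 19 reads. Against a floor of 3 reads in MA-4x this is at least 5.58-fold higher. The mature osa-miR169b had 13.3 in SCP-4x and 6.42 in MA-4x and also rose. The abundant osa-MIR169a-p3 (370 in SCP-4x and 459 in MA-4x) and osa-MIR169a-p5 (369 in SCP-4x and 445 in MA-4x) were not called.

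miR396 restricts growth-regulating factors. osa-miR396a-5p rose, with 37.0 in SCP-4x and 13.9 in MA-4x, and the opposite arm osa-miR396c-3p fell, with 31.1 in SCP-4x and 63.4 in MA-4x (2.04-fold lower, interval 1.36–3.10), under the deposited scaling alone. osa-miR396e-5p, among the 10 most abundant miRNAs of SCP-4x, had 2280 in SCP-4x and 1412 in MA-4x, a log2 ratio of 0.69, which became 1.00 to 1.29 under the other 3 scalings and passed 2-fold there. osa-miR396c-5p had 338 in SCP-4x and 378 in MA-4x.

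The largest rise of a miRNA at a level of at least 50 was of osa-miR6250_R+1, of 23 nt, with 113 in SCP-4x and 18.1 in MA-4x, after 19.0 in PMA-4x (6.25-fold higher, interval 3.90–10.5). osa-miR5082_L-1, also of 23 nt, had 27.9 in SCP-4x and 5.44 in MA-4x (interval of the fold 2.14–14.9). These were the only rises whose interval lay wholly above 2. osa-miR2106_L+3R+1, of 25 nt, had 63.8 in SCP-4x and 23.6 in MA-4x, and osa-miR5072_L-2_1ss3AG 139 in SCP-4x and 67.9 in MA-4x. The last had 143 in PMA-4x, so MA-4x was its lowest library.

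Other lists had few members called, beside 9.23% rises and 21.3% falls over all miRNAs. Of 6 members of the small RNA feedback list (miR162 targets DICER-LIKE1 and miR168 targets ARGONAUTE1) none was called. osa-miR168a-5p had 1155 in SCP-4x and 1796 in MA-4x (1.55-fold lower, interval 1.45–1.67), and osa-miR162a had 469 in SCP-4x and 532 in MA-4x. Of 4 members of the copper and lignin list that could be compared, 1 fell: osa-miR408-3p had 101 in SCP-4x and 207 in MA-4x (2.04-fold lower, interval 1.63–2.55), under the deposited scaling alone. osa-miR528-5p had 1071 in SCP-4x and 1152 in MA-4x. Of 2 members of the phosphate and sulfate list 1 fell, osa-miR395b_L-1, with 3.14 in SCP-4x and 12.3 in MA-4x. Of 12 transposon-derived or long miRNAs 1 rose, osa-miR1874-5p, with 12.8 in SCP-4x and 5.44 in MA-4x (interval of the fold 0.87–7.32). No member of the MADS-box list (miR444) was listed.

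Among the most abundant miRNAs of other kinds, ppt-miR894_R+1, named for a moss, had 1715 in both libraries. osa-miR166k-3p had 1692 in SCP-4x and 2465 in MA-4x. The 10 highest miRNAs held 42.8% of the listed signal in SCP-4x and 40.9% in MA-4x, the latter with both maize-named miR2275 entries of identical sequence. As deposited, osa-miR166b-5p was the only miRNA called among the 10 highest of either library.

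The same step in Taichung65-2x shares no library with the step in Taichung65-4x. There 29 of 355 miRNAs rose (8.17%) and 132 fell (37.2%) by the same limits. Of 306 miRNAs compared in both ploidies, 20 rose in Taichung65-4x and 20 in Taichung65-2x, and 7 rose in both, 35% of each list. Falls were 79 for Taichung65-4x against 113 for Taichung65-2x, with 55 shared, 69.6% of the Taichung65-4x list and 48.7% of the Taichung65-2x list. Over the 305 with no listed 0, the log2 ratios of the ploidies had a Pearson r of 0.65 and a Spearman rho of 0.66, as a description across miRNAs, which are not independent replicates and share the scaling of their libraries.

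The median difference of the log2 ratio, Taichung65-4x minus Taichung65-2x, was 0.09 as deposited, 0.12 with equal sums, −0.27 by the median ratio and −0.18 by clean reads, so it has no direction that holds across scalings. As deposited, 24 nt miRNAs had a median difference of 0.25 (71 miRNAs), 22 nt of 0.46 (43) and 21 nt of −0.02 (173). A scaling moves every difference by the same amount, so the sign of the 24 nt value does not hold across scalings either. Above the median difference of all miRNAs were 40 of the 71, 26 of the 43 and 79 of the 173. In miR2118 26 of 30 members fell in Taichung65-2x, where 37.2% of all miRNAs did, with a median log2 ratio of −1.59, against 15 of 29 and −1.02 in Taichung65-4x. In miR2275 0 of 8 fell in Taichung65-4x and 2 of 8 in Taichung65-2x, against 21.3% of all miRNAs in Taichung65-4x and 37.2% in Taichung65-2x. These differences between ploidies were not tested.

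**Figure D5:**
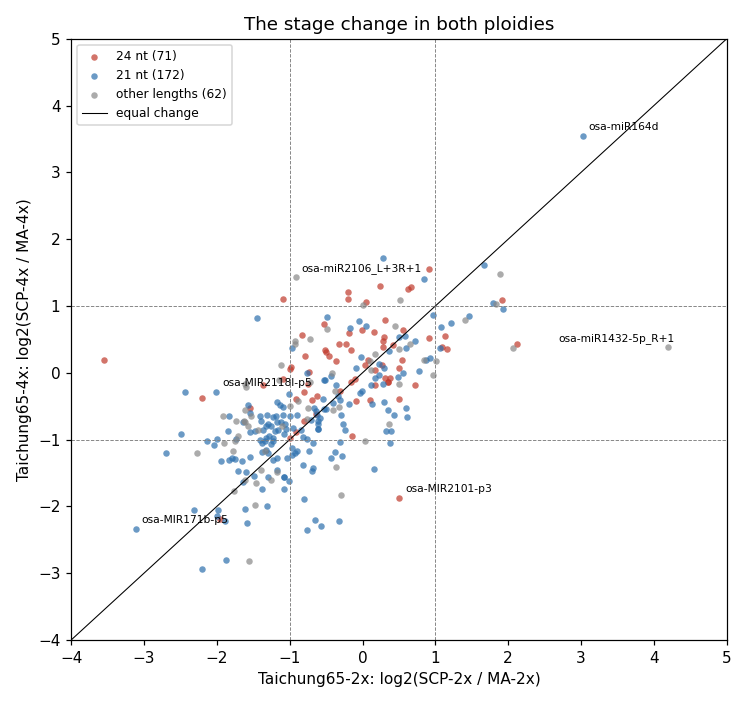
The log2 ratio of SCP to MA in Taichung65-4x (vertical) and Taichung65-2x (horizontal) of 305 miRNAs compared in both ploidies with no listed 0, 1 library per group. The solid line marks an equal change and the broken lines 2-fold. The 2 farthest points named on the right and below are osa-miR1432-5p_R+1, which was called in Taichung65-2x alone, and osa-MIR2101-p3, which fell in Taichung65-4x alone.

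Single miRNAs departed from the common course. osa-miR1432-5p_R+1, of a family that targets calcium-binding EF-hand genes, had 215 in SCP-4x and 164 in MA-4x, against 69.3 in SCP-2x and 3.77 in MA-2x, a difference of the log2 ratios of −3.81. The MA-2x value is close to that of 3 reads there (2.83), so the size of this difference is poorly fixed. osa-MIR2101-p3 fell in Taichung65-4x, as above, and had 13.3 in SCP-2x and 9.44 in MA-2x, a difference of −2.37. osa-miR5486 fell in Taichung65-4x and had 32.9 in SCP-2x and 51.9 in MA-2x. In the other direction, osa-miR2106_L+3R+1 rose in Taichung65-4x and had 7.996 in SCP-2x and 15.1 in MA-2x, a difference of 2.35. osa-MIR2118l-p5 had 22.99 in SCP-4x and 28.1 in MA-4x but fell in Taichung65-2x, with 21.3 in SCP-2x and 85.9 in MA-2x. osa-miR164d and osa-MIR169b-p3 rose in both ploidies, in Taichung65-2x with 43.5 in SCP-2x and 5.35 in MA-2x for the first and 14.2 in SCP-2x and 0.94 in MA-2x for the second.

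Part of the rises was among miRNAs listed for Taichung65-4x alone. Of 68 of these that could be compared 10 rose and 1 fell (median log2 ratio 0.32), and 55 of the 68 were of 24 nt. They include osa-miR6250_R+1, osa-miR5082_L-1, PC-3p-367244_47 and PC-5p-588719_30. Of 322 listed for both ploidies 26 rose and 82 fell, with a median of −0.49. Since a miRNA was listed for a ploidy when it passed 10 in some stage there, the listing itself depends on the SCP-4x value for some of them.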

How the data were processed

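The deposited tables hold the authors' normalized signal, 1 value per miRNA and library. Per the labels and the study's methods, anther RNA was made into TruSeq small RNA libraries and read on an Illumina HiSeq2500, and ACGT101-miR filtered the reads. BLAST placed them on hairpins of miRBase 20.0 and on the rice genome (build not given in the sources), and RNAfold folded the candidates. Copies were then scaled by a single factor for each library. The deposited signal is therefore neither a raw count nor a share of reads, and the authors kept a miRNA when it passed 10 in some stage of that ploidy. No genome was used here, so loci are not placed on chromosomes.

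Each library's value of 1 read was taken as the largest step that makes at least 0.6 of low values whole within 0.01 read. SCP-4x was set against MA-4x with limits of 10 for level and 2 for fold. A listed 0 was read as 0.01. A Fisher test was an alternative only, since with 1 library a side it compares the reads of 2 libraries. Families go by the number in the name. Named miRNAs are the 12 largest and 12 smallest ratios at 50 or more, the 10 highest per library, up to 4 per list or family of 3 or more, those listed at 0, the 6 largest differences between ploidies each way, the 6 hairpins with most unlike arms and opposite calls between ploidies. Others that rose or fell, or are the partner or relative of one, were named after their values were seen. The members and lists were chosen with earlier results of these data known. Alternatives changed scaling, level limit, fold, pseudocount, the value of a listed 0, duplicates and listing. Scripts ran in Python 3.11.15 with numpy 2.4.6, pandas 2.3.3 and scipy 1.17.1, and were tested on simulated data.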

Additional observations from a re-analysis of the deposited data

Results flagged for a closer look

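osa-miR1436_L+3_2ss5CT16GA, of 24 nt, was called in opposite directions at this step in the ploidies. It had 22.3 in SCP-4x and 10.4 in MA-4x, a log2 ratio of 1.10, against 5.33 in SCP-2x and 11.3 in MA-2x, a log2 ratio of −1.09. The difference of the log2 ratios was 2.19. It rests on 1 library per group and was not tested.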

How the results depend on the processing

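No paired analysis was possible because each group has 1 library, and for the same reason no replicate could be left out. Values below come in the order equal sums, median ratio and clean reads. Rises were 81, 58 and 95 against 36, and falls 33, 45 and 29 against 83. The median log2 ratio was 0.18, 0 and 0.29 against −0.31 over all miRNAs, 0.74, 0.56 and 0.85 against 0.25 for 24 nt, and −0.27, −0.45 and −0.17 against −0.77 for 21 nt. The median difference between ploidies (0.09) became −0.27 by the median ratio and −0.18 by clean reads. A level limit of 20 left 18 rises and a median of −0.56 over all miRNAs. A limit of 50 left 5 rises, 53 falls, a median of −0.72 over all miRNAs and a median log2 ratio of −0.082 for 24 nt. Folds over 4 gave 7 rises and 16 falls, and folds over 1.5 gave 71 and 156. A pseudocount of 10 gave 7 rises, 47 falls and medians of −0.20 over all and −0.57 for 21 nt. Keeping miRNAs listed for both ploidies gave a median of −0.49, and keeping those over 10 in both libraries, an alternative chosen after seeing the data, gave 12 rises. Requiring also p under 0.05 in Fisher's exact test of rounded values against each library's table sum left 36 rises and 57 falls. That test compares shares of the sums, so it brings in the equal-sums scaling, which favours rises, and it differs from the counting intervals, which keep the deposited scaling. With identical sequences counted once there were 36 rises and 81 falls. Setting a listed 0 at 3 reads changed no count. Of 113 named miRNAs, 32 were called, and 4 to 5 of them lost the call under each other scaling, all falls, while 14, 8 and 18 of the others gained one, all rises. Low depth limits the rises, since most rest on fewer than 50 units of signal.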
